A study of Mus musculus with 12 samples.

Results

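The 9 genes followed here write, copy, oxidise or remove the methyl mark on cytosine in mouse DNA: Dnmt1, Dnmt3a, Dnmt3b, Dnmt3l, Uhrf1, Tet1, Tet2, Tet3 and Tdg. They were taken by gene name from a table of 47729 genes, and all 9 were found. The data are 12 poly(A) RNA-seq libraries of E14Tg2a, a mouse embryonic stem cell line of strain 129/Ola. The wild-type cells are called WT, and cells of the same line that lack a regulatory region of the transcription factor gene Tcf15 on both alleles, delta 0.7 in the labels, are called delta. Both genotypes were sampled in serum-free N2B27 with 2i and LIF (0 h), which holds stem cells in the naive state, and 12 h and 24 h after transfer to plates coated with fibronectin and to N2B27 that held bFGF, KOSR and Activin, conditions that turn naive cells into epiblast-like cells (EpiLC). Each of the 6 groups held 2 libraries, and all shared the line and the medium before induction. The deleted region is given as chr2:152177049-152177722 with no build named beside it. The delta libraries carry 1 line name, so the deletion and the line cannot be told apart. Nothing in the labels says that the replicates were separate cultures, so p-values measure only the spread between these libraries, which may be technical.

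DNA methylation is laid down on unmethylated CpG sites by the de novo enzymes Dnmt3a and Dnmt3b, with Dnmt3l as a partner that lacks catalytic activity. It is copied onto new strands at replication by Dnmt1, which Uhrf1 brings to hemimethylated CpG sites. The Tet enzymes oxidise 5-methylcytosine, and Tdg is a glycosylase that cuts out the later oxidation products, so that base excision repair can put back plain cytosine. Naive stem cells in 2i are known for low methylation across the genome, and the shift towards the epiblast state is known for its return. Methylation itself was not measured here.

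The level of a gene is given in FPKM, a count per length of exon scaled to an effective library size, as deposited. The libraries held 9740758 to 17570996 reads recovered from the FPKM steps (median 12189804), and each member other than Tet3 had between 167 and 21773 reads in a library. The effective size was 75.5% of these reads in delta 0 h replicate 1 and 92.2% in WT 0 h replicate 1. It was 99.7% to 107% in the other 10 libraries. The replicate 1 libraries of 0 h stood apart: 11.3% (WT) and 13.3% (delta) of their reads came from genes of ribosomal proteins, against 5.68% to 7.44% in the other 10 libraries, and long genes were low in them. As a check of the genotype, Tcf15 averaged 6.31 ± 4.04 (SD, n = 2), 43.0 ± 20.02 and 77.4 ± 31.1 FPKM at 0, 12 and 24 h in WT and 1.60 ± 0.79, 1.05 ± 0.02 and 3.60 ± 1.19 FPKM in delta. The summed level of 7 stem cell markers was 1748 to 2641 FPKM at 0 h, 1662 to 1837 FPKM at 12 h and 1036 to 1251 FPKM at 24 h, and that of 3 epiblast-like markers (Pou3f1, Fgf5 and Otx2) went from 0.907 to 7.30 FPKM at 0 h to 90.5 to 181 FPKM at 24 h. Markers of endoderm, 2-cell-like cells and neural cells summed to at most 1.60 FPKM in any library, and the 2-cell-like marker Tcstv1 was at 0 in all. Trophoblast markers summed to 13.5 to 27.0 FPKM at 0 h and to at most 3.65 FPKM later, and only 2 of the 4 reached 1 FPKM in any library. The 8 fibroblast markers summed to 21.4, 48.9 and 43.3 FPKM in the WT replicate 1 libraries of 0, 12 and 24 h and to at most 7.01 FPKM in the other 9 libraries; 6 of the 8 reached 1 FPKM in some library and none was at 0 in all.

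The start regions of Dnmt3a, Dnmt3b and Dnmt3l, the members called over time, and of Tet2, the member start richest in CpG, are shown here because they hold very different amounts of CpG, the target of these same enzymes. RefSeq start regions (250 bases before to 50 bases after the start, build GRCm38.p6) matched all 9 members, with 16 starts in all. Every CpG is in capitals, and each sequence runs 5′ to 3′ on the strand of its gene. Of the 3 Dnmt3a starts, the first, upstream one and the third, internal one are shown, since the enzyme is known to have a long and a short form made from separate starts. The upstream one lies at chr12:3806730-3807029, plus strand, and the internal one at chr12:3891494-3891793, plus strand. The Dnmt3b start region lies at chr2:153649199-153649498, plus strand, the first Dnmt3l one at chr10:78042037-78042336, plus strand, and that of Tet2 at chr3:133544341-133544640, minus strand.
Dnmt3a, upstream start: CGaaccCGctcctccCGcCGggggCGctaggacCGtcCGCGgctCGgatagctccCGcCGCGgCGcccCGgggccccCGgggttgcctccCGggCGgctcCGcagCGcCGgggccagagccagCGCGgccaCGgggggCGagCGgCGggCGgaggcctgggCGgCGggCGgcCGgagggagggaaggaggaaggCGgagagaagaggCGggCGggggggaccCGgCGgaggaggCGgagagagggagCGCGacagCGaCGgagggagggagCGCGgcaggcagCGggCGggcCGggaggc
Dnmt3a, internal start: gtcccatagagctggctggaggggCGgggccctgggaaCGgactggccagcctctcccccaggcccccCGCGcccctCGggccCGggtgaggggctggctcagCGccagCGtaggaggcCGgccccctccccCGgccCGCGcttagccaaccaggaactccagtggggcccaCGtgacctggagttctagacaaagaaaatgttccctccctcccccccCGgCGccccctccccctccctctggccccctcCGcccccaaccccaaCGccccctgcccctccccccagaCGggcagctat
Dnmt3b: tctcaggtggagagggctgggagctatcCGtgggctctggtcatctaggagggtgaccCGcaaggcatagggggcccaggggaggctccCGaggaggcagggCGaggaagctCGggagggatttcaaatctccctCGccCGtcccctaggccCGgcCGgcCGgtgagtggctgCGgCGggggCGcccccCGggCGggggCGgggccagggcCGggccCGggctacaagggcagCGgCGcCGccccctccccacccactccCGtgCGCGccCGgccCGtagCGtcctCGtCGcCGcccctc
Dnmt3l, first start: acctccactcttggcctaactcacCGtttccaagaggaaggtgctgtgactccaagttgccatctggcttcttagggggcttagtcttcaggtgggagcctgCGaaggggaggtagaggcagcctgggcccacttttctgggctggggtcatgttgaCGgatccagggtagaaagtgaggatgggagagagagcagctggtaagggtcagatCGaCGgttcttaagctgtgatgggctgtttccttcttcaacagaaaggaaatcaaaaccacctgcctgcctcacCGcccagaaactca
Tet2: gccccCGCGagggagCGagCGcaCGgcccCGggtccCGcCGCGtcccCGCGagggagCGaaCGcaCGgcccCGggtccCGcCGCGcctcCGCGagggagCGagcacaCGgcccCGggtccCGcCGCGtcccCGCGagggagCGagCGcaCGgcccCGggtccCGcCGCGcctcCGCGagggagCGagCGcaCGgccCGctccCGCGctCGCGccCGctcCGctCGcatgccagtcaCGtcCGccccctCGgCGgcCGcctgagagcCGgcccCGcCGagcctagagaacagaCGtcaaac
The Tet2 start region held 57 CpG, more than 99.8% of the 32851 start regions in the table, whose median was 7 (quartiles 3 and 20). The upstream Dnmt3a start held 46, the internal one 18 and Dnmt3b 30. The Dnmt3l starts held 6, 4 and 3, which placed them between the 23.3rd and the 43.6th percentile. The E-box CANNTG, the letters that basic helix-loop-helix factors such as Tcf15 are known to bind, was searched on both strands, which for this motif read alike, with overlapping matches counted. It was present in 12 of the 16 member starts and in 72.3% of all start regions. The Dnmt3l starts, in the same order as their CpG counts, held 4, 1 and 0 matches. There was 1 match at the internal Dnmt3a start, 1 at Dnmt3b and none at the upstream Dnmt3a start or at Tet2. Which of the starts of a gene was used in these cells was not tested.

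**Figure D1:**
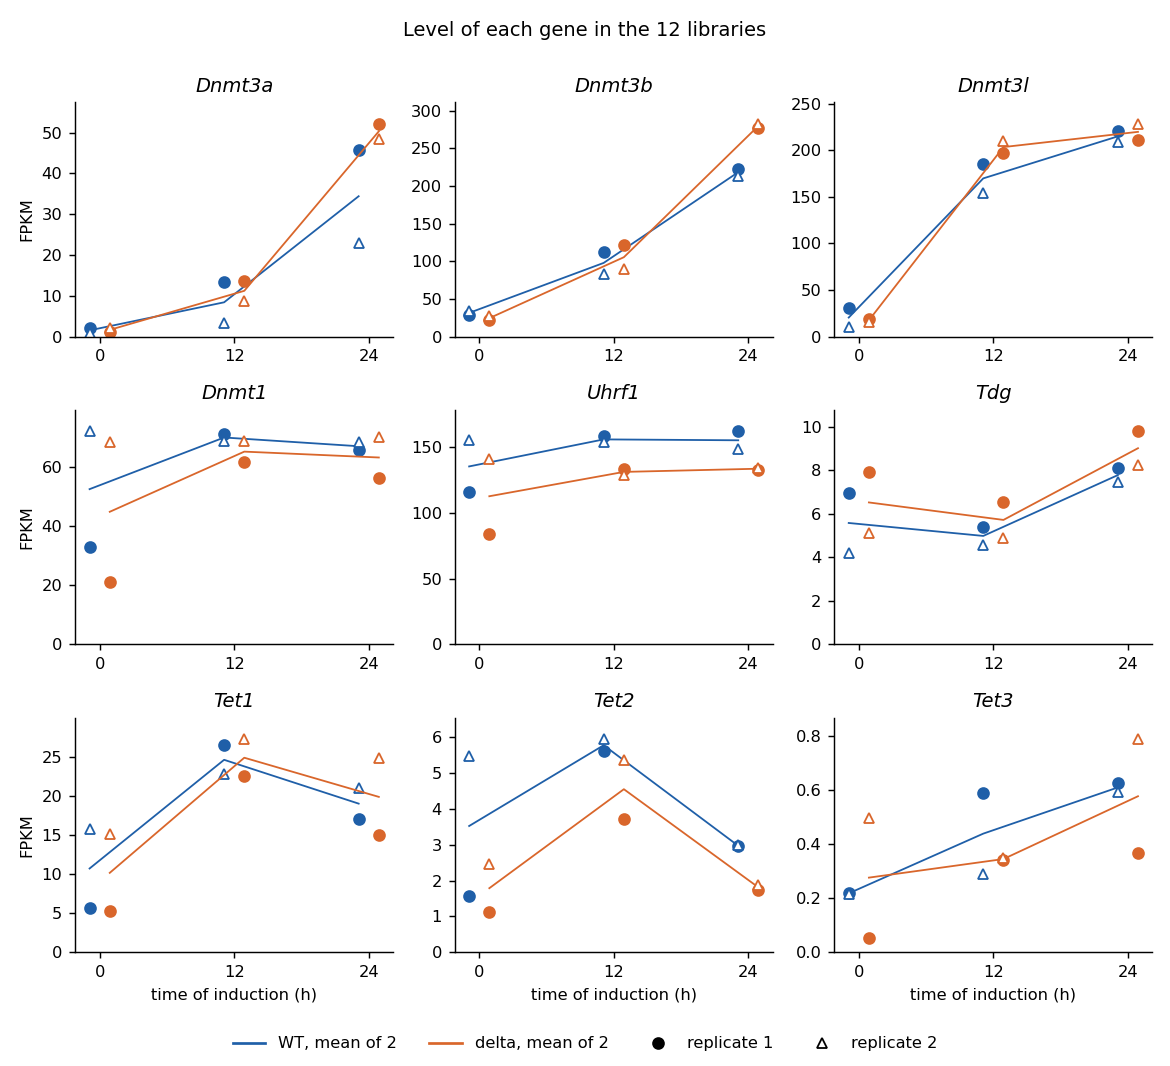
FPKM of the 9 genes (y axes, each from 0) against time of induction in hours for WT (blue) and delta (orange); filled circles are replicate 1, open triangles replicate 2, and lines join the means of 2 libraries. Dnmt3a, Dnmt3b and Dnmt3l climbed in both genotypes, Tet1 and Tet2 were highest at 12 h by their means, and the replicate 1 libraries of 0 h were low for Dnmt1, Uhrf1, Tet1 and Tet2.

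Of the 9 genes, the 3 of the de novo machinery rose during induction, in both genotypes, and no other member passed the test in any interval. From 0 h to 24 h the mean level rose 22.5-fold (WT) and 30.5-fold (delta) for Dnmt3a, 6.94-fold and 11.4-fold for Dnmt3b, and 10.5-fold and 12.5-fold for Dnmt3l. In WT the Dnmt3l fold was 20.04-fold without 0 h replicate 1 and 7.12-fold without 0 h replicate 2, and the Dnmt3a fold was 35.3-fold without 0 h replicate 1 and 15.0-fold without 24 h replicate 1. All the other folds, with 1 library of the 2 groups left out, stayed within 1.5 times. They were 3 of the 8 members that could be tested, in each genotype, where 5.27% (WT) and 7.58% (delta) of the 13981 genes tested were called higher. By 12 h the members called higher were 2 in WT and 3 in delta, against 2.13% and 3.55% of all genes. Limma called 0 members lower in any interval, and so did voom weights, with 1 at an unadjusted p under 0.05 (Tet2 in delta from 12 h to 24 h). Of all genes 1.9%, 0.157% and 4.94% were lower in WT and 3.45%, 0.601% and 7.8% in delta, from 0 h to 12 h, 12 h to 24 h and 0 h to 24 h. Tet3 was below the filter of 1 FPKM in at least 2 libraries. Calls are at an adjusted p under 0.05 in limma with Benjamini-Hochberg adjustment over all genes tested, and log2 changes are on the log2(FPKM + 1) scale with the SE of the model.

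Dnmt3a is a de novo methyltransferase, encoded at chr12:3806007-3914443 (GRCm38, GENCODE M21). In WT it stood at 2.09 and 0.973 FPKM (replicates 1 and 2) at 0 h, 13.4 and 3.45 FPKM at 12 h and 45.8 and 23.0 FPKM at 24 h. In delta it stood at 1.119 and 2.19 FPKM, 13.6 and 8.79 FPKM, and 52.2 and 48.4 FPKM. All libraries of a later time lay above all libraries of an earlier one, across both genotypes. Of all genes, 15.6% were higher in all 4 libraries of 24 h than in all 4 of 0 h and 16.7% lower, and no member was lower. The share of genes ordered over all 3 times was not counted. The change from 0 h to 24 h was 3.76 ± 0.54 (adjusted p = 0.00259) in WT and 4.30 ± 0.54 (adjusted p = 0.000981) in delta. By 12 h the change was 2.20 ± 0.54 in delta (adjusted p = 0.0416) and 1.70 ± 0.54 in WT, where it was not called (adjusted p = 0.137). The delta call at 12 h was lost in 11 of 23 alternatives, with an adjusted p of 0.0533 to 0.266 in those, among them leaving out both 0 h replicate 1 libraries (0.107).

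Dnmt3b, the other de novo enzyme, lies at chr2:153649450-153687730, on the chromosome of the deletion and, if its coordinates are of the same build, 1471728 bases from it. It had 28.5 and 34.5 FPKM at 0 h in WT, 112.1 and 83.6 FPKM at 12 h, and 223 and 214 FPKM at 24 h. The delta libraries had 21.6 and 27.4 FPKM, 121 and 89.9 FPKM, and 277 and 283 FPKM. The 3 times did not overlap. Of all genes, 13.1% were higher in this way at 12 h than at 0 h, and 10.5% at 24 h than at 12 h. Changes from 0 h to 24 h were 2.76 ± 0.23 (adjusted p = 0.000183) in WT and 3.47 ± 0.23 (adjusted p = 5.14e-05) in delta, and both were already called at 12 h, at 1.60 ± 0.23 (adjusted p = 0.00588) and 2.06 ± 0.23 (adjusted p = 0.00134).

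Dnmt3l, the partner without catalytic activity, lies at chr10:78041947-78063622. It had 30.2 and 10.7 FPKM at 0 h in WT, 186 and 154 FPKM at 12 h, and 220 and 209 FPKM at 24 h. The delta values were 19.1 and 15.9 FPKM, 197 and 209 FPKM, and 211 and 228 FPKM. The 0 h libraries were all below the rest, while those of 12 h and 24 h overlapped. Of all genes, 13.1% had all 0 h libraries below those of 12 h, and 15.6% below those of 24 h. By 12 h the change was 3.15 ± 0.37 (adjusted p = 0.00255) in WT and 3.47 ± 0.37 (adjusted p = 0.00127) in delta, and by 24 h 3.50 ± 0.37 (adjusted p = 0.000616) and 3.58 ± 0.37 (adjusted p = 0.000415). The annotated gene overlaps Aire, whose row held 10 to 451 reads in a library, 4.15% of the Dnmt3l reads over all libraries, so reads from the overlap cannot be assigned with certainty.

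The 3 genes did not climb at the same pace. Dnmt3l had covered 72.1% to 92.9% of its 0 h to 24 h rise in FPKM by 12 h (median 86.4% over the 4 series of 1 genotype and replicate number), Dnmt3b 24.5% to 43.0% (median 33.2%) and Dnmt3a 11.3% to 25.8% (median 19.4%). The ranges of the 3 genes overlapped only between Dnmt3a and Dnmt3b, and within each of the 4 series the order was the same. Joining libraries of different times by replicate number is an assumption, and shares on a log2 scale would differ. From 12 h to 24 h Dnmt3b was the only member called, and in delta alone: 1.42 ± 0.23 (adjusted p = 0.0209), where 0.758% of all genes were called higher. This call was lost without any 1 of the 4 delta libraries of 12 h and 24 h (adjusted p 0.0856 to 0.264) and under TPM scaling (0.188). In WT the 12 h to 24 h change of Dnmt3b was 1.16 ± 0.23 (adjusted p = 0.0750) and that of Dnmt3a 2.07 ± 0.54 (adjusted p = 0.196); limma called no member there and neither did voom weights, 2 had an unadjusted p under 0.05, and 0.25% of all genes were called higher. Counted over both genotypes as libraries that do not overlap, 4 against 4, Dnmt3a, Dnmt3b and Tdg were higher at 24 h than at 12 h, as were 10.5% of all genes.

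**Figure D2:**
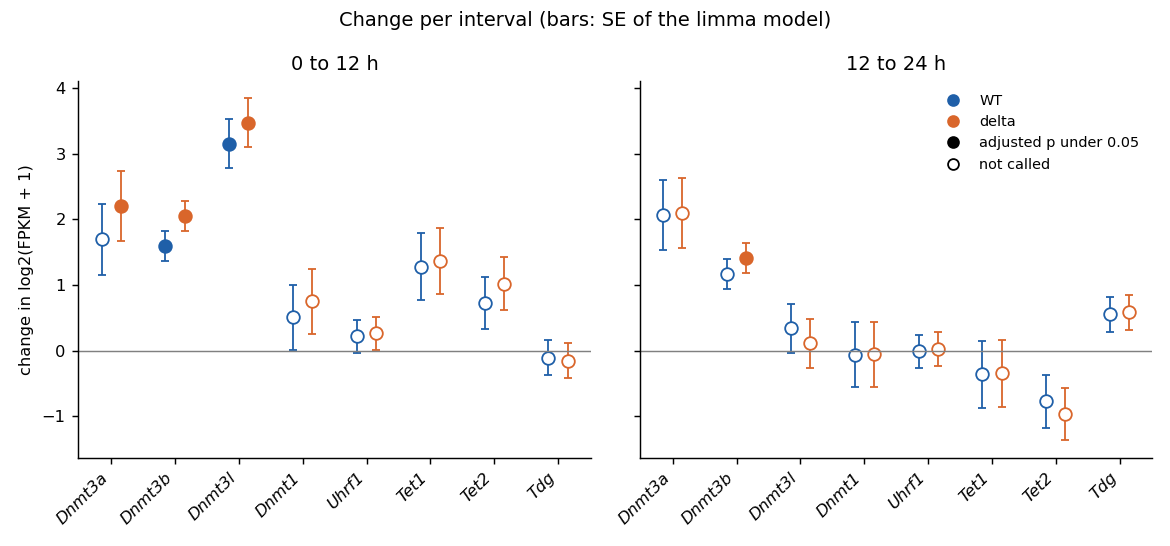
Change in log2(FPKM + 1) with the SE of the limma model for the 8 members tested, from 0 to 12 h (left) and from 12 to 24 h (right), in WT (blue) and delta (orange); filled points have an adjusted p under 0.05. Dnmt3l moved by over 3 in the first interval and by 0.34 (WT) and 0.11 (delta) in the second, while Dnmt3a moved by 1.70 and 2.20 in the first and 2.07 and 2.10 in the second.

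Ratios of 2 genes within a library do not depend on how that library was scaled, though they can still carry a dependence on gene length. In the exact permutation test (2-sided, times permuted within genotype, 8100 arrangements, 7 ratios), the log2 ratio of Dnmt3a to Dnmt3b was higher by 1.59 at 24 h than at 0 h (p = 0.00469, adjusted p = 0.0109). Dnmt3a made up 2.75% to 7.40% of the sum of both FPKM values at 0 h and 9.70% to 17.1% at 24 h. Without the WT 0 h replicate 2 library, where Dnmt3a was lowest, the difference was 1.25 and no longer passed (adjusted p = 0.0927). The sum of Dnmt3a and Dnmt3b over Dnmt1 gave 0.431 to 1.07 at 0 h, 1.27 to 2.19 at 12 h and 3.46 to 5.85 at 24 h. Its log2 value was higher by 2.71 at 24 h (p = 0.000247, the smallest the exact permutation test can give; adjusted p = 0.00173). Dnmt3l over the sum of Dnmt3a and Dnmt3b was highest at 12 h in all 4 series: 0.302 to 0.987 at 0 h, 1.47 to 2.12 at 12 h and 0.641 to 0.884 at 24 h, and its 24 h and 0 h values differed by 0.31 on the log2 scale, which did not pass the exact permutation test (adjusted p = 0.621).

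**Figure D3:**
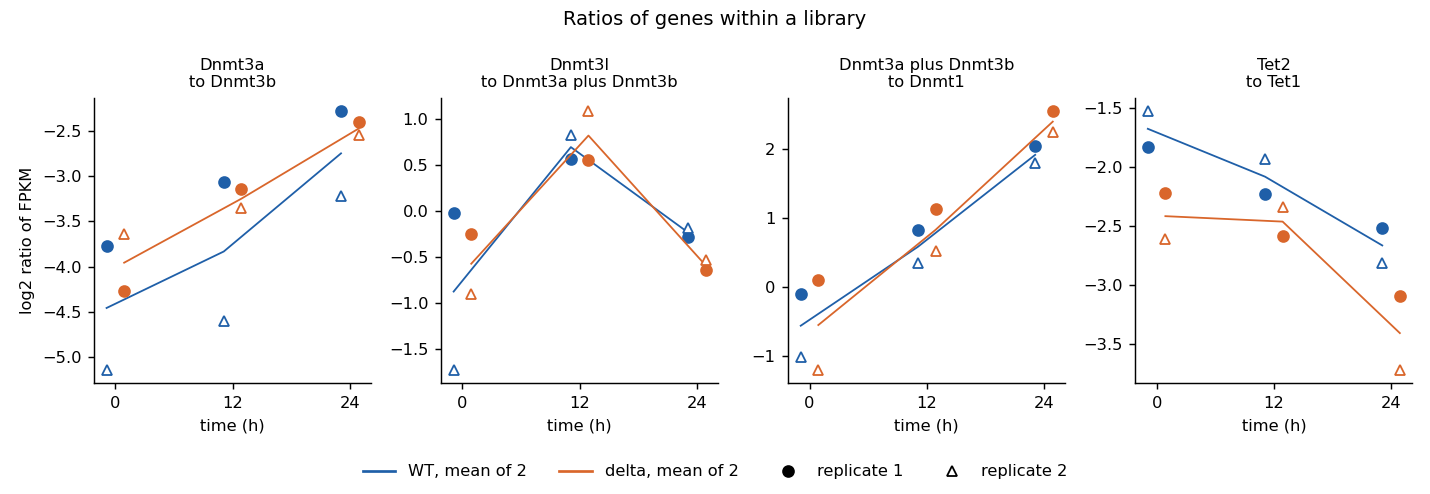
Log2 ratio of FPKM values within each library (y axes, each on its own scale) against time of induction in hours for 4 ratios, WT in blue and delta in orange, with filled circles for replicate 1, open triangles for replicate 2 and lines through the means of 2 libraries. The ratio of Dnmt3l to Dnmt3a plus Dnmt3b peaked at 12 h, that of Dnmt3a plus Dnmt3b to Dnmt1 climbed throughout, and Tet2 over Tet1 was lowest at 24 h in every series.

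Dnmt1 and Uhrf1, the maintenance pair, were high at all times and were not called in any contrast. Dnmt1, at chr9:20907209-20959888, had 33.0 and 72.0 FPKM at 0 h in WT and 65.6 to 71.3 FPKM in the 4 later WT libraries. In delta it had 21.2 and 68.5 FPKM at 0 h and 56.2 to 70.2 FPKM later. The 0 h replicate 1 libraries alone were low, at 45.8% (WT) and 30.9% (delta) of their replicate 2 partners. In the replicate 2 libraries the change from 0 h to 12 h was -0.07 in WT and 0.01 in delta, given as values with no test, against 0.51 ± 0.49 (adjusted p = 0.627) and 0.75 ± 0.49 (adjusted p = 0.378) in the fit over both. Uhrf1, at chr17:56303321-56323486, had 115 and 155 FPKM at 0 h in WT and 148 to 162 FPKM later, and 84.0 and 141 FPKM followed by 128 to 134 FPKM in delta. Its replicate 2 libraries changed by -0.06 (WT) and -0.07 (delta) from 0 h to 24 h, and its replicate 1 libraries by 0.48 and 0.65. The limma fit over both gave 0.21 ± 0.25 in WT (adjusted p = 0.673) and 0.29 ± 0.25 in delta (adjusted p = 0.472).

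**Figure D4:**
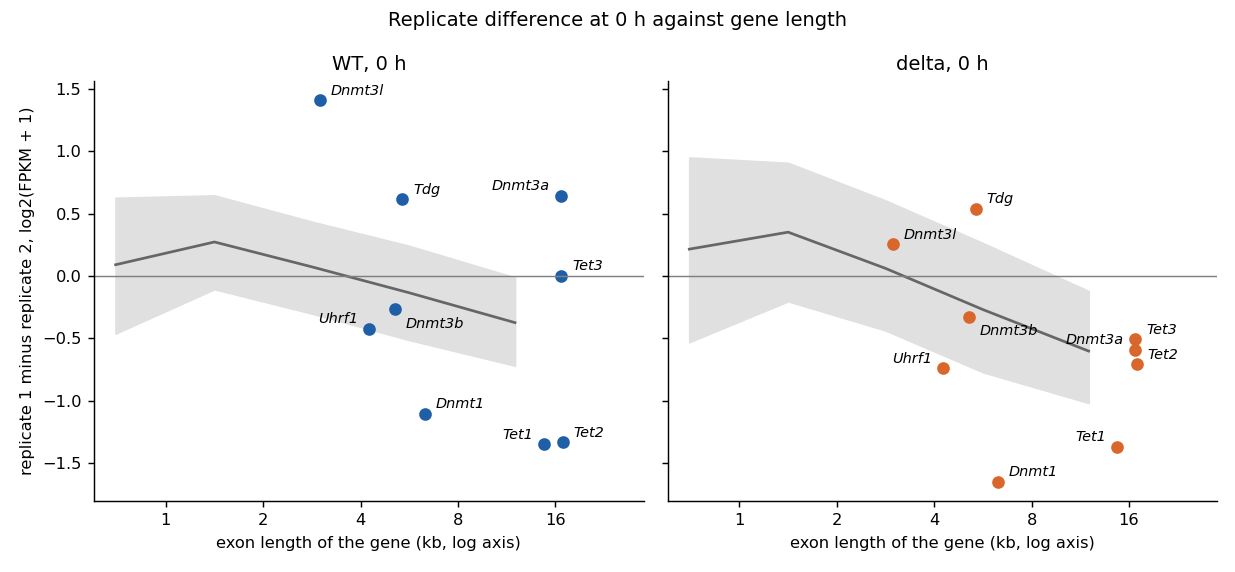
Difference between the replicates at 0 h in log2(FPKM + 1) (y axis) against exon length in kilobases (log axis) for WT (left) and delta (right); points are the 9 members, the grey line is the median of all genes in 5 length classes and the grey band their quartiles. Genes of 8 kb and more were lower in replicate 1 by a median of 0.37 (WT) and 0.60 (delta), and Dnmt1, Tet1 and, in WT, Tet2 lay below the quartiles of their length class. Tdg lay above the quartiles in both genotypes, and Dnmt3a, Dnmt3l and, narrowly, Tet3 did in WT.

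Against the quartiles of genes of like length, Dnmt1 and Tet1 were lower in the 0 h replicate 1 libraries of both genotypes, and Tdg was higher. Among 1459 genes with 8 kb of exon or more the median difference between replicates 1 and 2 at 0 h was -0.37 (WT) and -0.60 (delta), and among 2146 genes of 1 to 2 kb it was 0.27 and 0.35. Tet1 (14710 bases) differed by -1.35 and -1.37, Tet2 (16870 bases) by -1.33 and -0.71, and Dnmt1 (6304 bases) by -1.10 and -1.65. Dnmt3a, with 16642 bases, differed by 0.65 in WT and -0.59 in delta, and Dnmt3l, with 2988 bases, by 1.41 and 0.26. In WT both lay above the upper quartiles of their classes (-0.01 and 0.44). Tdg (5374 bases) differed by 0.62 in WT and 0.54 in delta, where the upper quartiles of its class were 0.24 and 0.26. The part of the library difference in the 0 h levels of these genes was not tested.

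Among the oxidising enzymes Tet1 was the main transcript, and Tet1 and Tet2 had their highest means at 12 h. Tet1, at chr10:62804570-62908996, had 5.60 and 15.8 FPKM at 0 h in WT, 26.4 and 22.8 FPKM at 12 h, and 17.0 and 20.99 FPKM at 24 h. In delta it had 5.22 and 15.1 FPKM, 22.5 and 27.2 FPKM, and 14.9 and 24.8 FPKM. All 4 libraries of 12 h were above all 4 of 0 h, as were those of Dnmt3a, Dnmt3b and Dnmt3l and 13.1% of all genes; 13.7% of all genes, and no member, were lower in this way. The change from 0 h to 12 h was not called, at 1.28 ± 0.51 (adjusted p = 0.240) in WT and 1.37 ± 0.51 (adjusted p = 0.149) in delta. With the replicate block the delta value passed (adjusted p = 0.0498). Replicate 2 libraries alone changed by 0.50 and 0.81.

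Tet2, at chr3:133463679-133545139, had 1.57 and 5.47 FPKM at 0 h in WT, 5.61 and 5.95 FPKM at 12 h, and 2.96 and 2.99 FPKM at 24 h. In delta the values were 1.117 and 2.46 FPKM, 3.73 and 5.37 FPKM, and 1.75 and 1.87 FPKM. Every library of 24 h lay below every library of 12 h, as for 12.8% of all genes. The change from 12 h to 24 h was -0.77 ± 0.40 (adjusted p = 0.795) in WT and -0.97 ± 0.40 (adjusted p = 0.456) in delta, and neither was called. Without both 0 h replicate 1 libraries the delta change from 12 h to 24 h was called as a fall (adjusted p = 0.0217). From 0 h to 12 h the change in limma was 0.73 ± 0.40 in WT (adjusted p = 0.406) and 1.02 ± 0.40 in delta (adjusted p = 0.164). The replicate 2 libraries alone changed by 0.10 in WT and 0.88 in delta, given as values with no test. Against Tet1 in the same library Tet2 was lower at 24 h than at 0 h by 0.99 on the log2 scale (exact permutation p = 0.000988, adjusted p = 0.00346); Tet2 over Tet1 gave 0.163 to 0.347 at 0 h and 0.0755 to 0.174 at 24 h. Their joined exons have 14710 bases for Tet1 and 16870 for Tet2, and their longest transcripts 14369 and 9179. The part of gene length in this ratio was not tested.

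Tet3, at chr6:83362373-83459084, was at or under 0.788 FPKM in every library. It had 0.219 and 0.216 FPKM at 0 h in WT, 0.589 and 0.288 FPKM at 12 h, and 0.627 and 0.592 FPKM at 24 h. The delta libraries gave 0.0534 and 0.498 FPKM, 0.341 and 0.348 FPKM, and 0.366 and 0.788 FPKM. The lowest, in the delta 0 h replicate 1 library, was 8 reads, with an exact 95% Poisson interval of 0.0231 to 0.105 FPKM that covers counting error only. Its replicate 2 partner had 146 reads, so the 2 libraries of that group differed by more than counting error. With no filter Tet3 could be tested and was not called: 0.40 ± 0.19 from 0 h to 24 h in WT (adjusted p = 0.305) and 0.31 ± 0.19 in delta (adjusted p = 0.371).

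Tdg, at chr10:82629828-82650799, had 6.96 and 4.19 FPKM at 0 h in WT, 5.39 and 4.57 FPKM at 12 h, and 8.11 and 7.43 FPKM at 24 h. In delta it had 7.90 and 5.13 FPKM, 6.55 and 4.87 FPKM, and 9.78 and 8.23 FPKM. The 4 libraries of 24 h lay above the 4 of 12 h, as for 10.5% of all genes, and the 0 h libraries overlapped both. The change from 12 h to 24 h was 0.56 ± 0.27 (adjusted p = 0.721) in WT and 0.58 ± 0.27 (adjusted p = 0.541) in delta. From 0 h to 24 h it was 0.45 ± 0.27 (adjusted p = 0.356) in WT and 0.43 ± 0.27 (adjusted p = 0.305) in delta. Without both 0 h replicate 1 libraries, which leaves 1 library at 0 h in each genotype, it was 0.76 in WT and 0.70 in delta. Under TPM scaling the delta change was called in limma (0.99, adjusted p = 0.0486), where the median change of all genes was 0.40. A processed pseudogene of Tdg held 1 to 5 reads in a library, and the overlapping gene Glt8d2 2 to 10.

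The order of the 9 genes by FPKM, a level per length, changed with time. At 0 h the order in both genotypes was Uhrf1, Dnmt1, Dnmt3b, Dnmt3l, Tet1, Tdg, Tet2, Dnmt3a and Tet3, and in WT only Uhrf1 over Dnmt1 and Dnmt3a over Tet3 were neighbours whose libraries did not overlap. At 12 h Dnmt3l led, followed by Uhrf1, Dnmt3b, Dnmt1, Tet1 and Dnmt3a; Dnmt3l and Uhrf1 overlapped in WT and not in delta. At 24 h the order was Dnmt3b, Dnmt3l, Uhrf1, Dnmt1, Dnmt3a, Tet1, Tdg, Tet2 and Tet3 in both genotypes, and Dnmt3b and Dnmt3l, in WT, were the only neighbours that overlapped. The lengths behind these values join all annotated exons of a gene (16642 bases for Dnmt3a, whose longest transcript has 9685). Levels of genes with many alternative exons are thus understated, by a factor that is constant only if the mix of forms is. Forms from different starts were not separated, so a change in that mix over time was not tested.

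No member differed between the genotypes past the threshold at any time. Limma and voom weights each called 0 of 8 members at 0, 12 and 24 h and averaged over times, and 0 had an unadjusted p under 0.05. All genes gave few calls as well, 0.00715% at 0 h and at 24 h and 0.0143% at 12 h and averaged. The genotype difference in the change from 0 h also gave 0 of 8, with 0% of all genes called. The replicate numbers were taken to pair the libraries. Deviations of same-numbered WT and delta libraries correlated at 0.702, 0.28 and 0.369 at 0, 12 and 24 h. Between different times they correlated at -0.066 to 0.462, so at 12 h and 24 h the pairing is an assumption. The differences within the 6 pairs of the same time and number are given next.

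Uhrf1 was lower in delta in 6 of 6 pairs, with differences of -8.96% to -27.2% of the WT FPKM, and Tet2 was lower in 6 of 6, at -9.71% to -55.1%. Tdg was higher in delta in 6 of 6 pairs, by 6.72% to 22.5%. Under TPM scaling these were 6, 5 and 5 of 6 pairs. Over all genes tested, 7.01% were lower and 6.84% higher in all 6 pairs. Averaged over times the differences were -0.47 ± 0.23 for Tet2, -0.25 ± 0.15 for Uhrf1 and 0.18 ± 0.15 for Tdg, each with an adjusted p of 1.00 in limma. With a term for each pair, an alternative chosen after seeing the data, the adjusted p in limma was 0.162, 0.178 and 0.257. Set against Tet1 in the same library, Tet2 was lower in delta by 0.62 on the log2 scale (exact permutation p = 0.00926, adjusted over the 7 ratios 0.0648). That p is the smallest the 216 arrangements can give, so a single differing ratio could not reach an adjusted p under 0.05. All the other ratios differed by less (p at least 0.259 in the exact permutation test).

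Dnmt3a was higher in delta in 5 of 6 pairs (4 of 6 under TPM scaling), with a wide gap between the pair numbers. The share of all genes higher in 5 of 6 pairs was not counted, so this count has nothing to stand against. Replicate 2 pairs differed by 0.69, 1.14 and 1.05 at 0, 12 and 24 h, and replicate 1 pairs by -0.54, 0.03 and 0.18. The gap lay on the WT side at 12 h and 24 h, where WT replicate 1 held 388% and 199.7% of the Dnmt3a of WT replicate 2, against 155% and 108% in delta. The WT replicate 1 libraries are those with fibroblast markers at 21.4 to 48.9 FPKM, against 1.82 to 5.76 FPKM in WT replicate 2; the part of this in the Dnmt3a levels was not tested. Dnmt3b was lower in delta in both pairs at 0 h, at -24.2% and -20.6%, and higher in both at 12 h, by 7.91% and 7.49%, and at 24 h, by 24.3% and 32.3%. This pattern of signs was found for 1.08% of all genes, and the genotype difference in the change to 24 h was 0.71 ± 0.32 (adjusted p = 1.00 in limma).

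**Figure D5:**
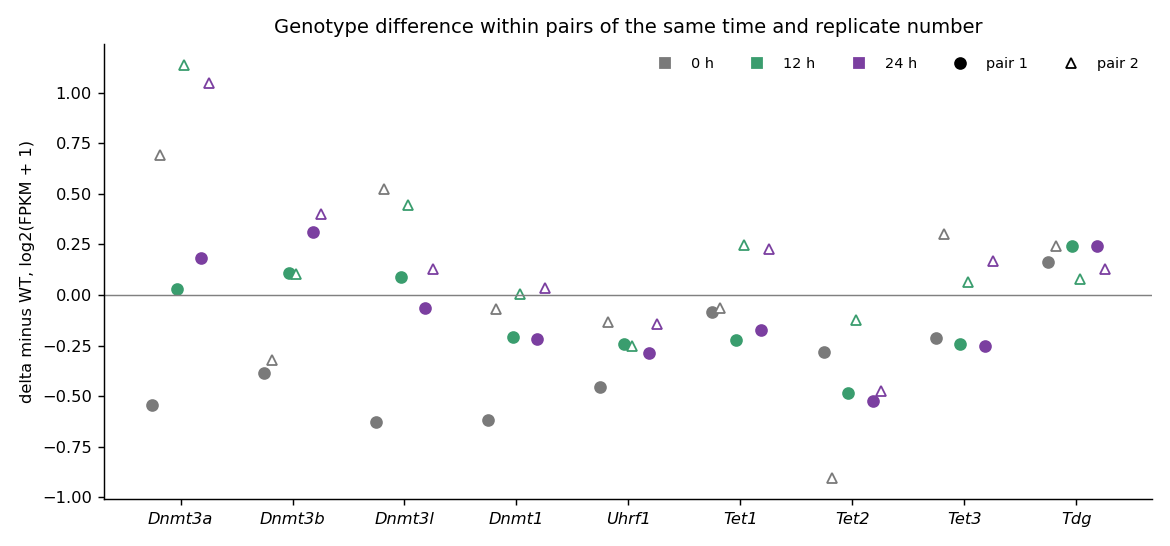
Delta minus WT in log2(FPKM + 1) (y axis) for the 9 members within pairs of the same time (colour) and replicate number (filled circle 1, open triangle 2). Uhrf1 and Tet2 lay below 0 and Tdg above 0 in all 6 pairs, and the Dnmt3a differences of pair 2 were 0.69 to 1.14 while those of pair 1 were -0.54 to 0.18.

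The genes that work with the 9 members were described in 5 lists with 55 genes, 51 of them tested, chosen with earlier results of these data known. The counts below, from 0 h to 24 h, stand against 5.27% of all genes called higher and 4.94% lower in WT, and 7.58% higher and 7.8% lower in delta. Among partners of maintenance, 1 of 8 tested rose from 0 h to 24 h in WT and 2 in delta, and none fell. Cdca7l, a relative of the factor that recruits the remodeller Hells, went from 3.25 to 11.02 FPKM in WT (1.49 ± 0.18, adjusted p = 0.00121) and from 3.77 to 11.9 FPKM in delta (1.44 ± 0.18, adjusted p = 0.00109). Hells, a remodeller needed for methylation of repeats, rose in delta from 49.97 to 99.8 FPKM (1.01 ± 0.23, adjusted p = 0.0192) and stood at 50.2 and 86.8 FPKM in WT (0.78 ± 0.23, adjusted p = 0.0661). The median change of this list was 0.14 in WT and 0.18 in delta, against -0.03 and -0.05 for all genes tested. The list of methyl-CpG readers and their relatives, 7 tested, had 0 called in WT by limma and 2 in delta. In WT 2 had an unadjusted p under 0.05 in limma, and voom weights called 0. In delta Mbd3, a subunit of the NuRD complex listed as a relative, rose (0.77 ± 0.17, adjusted p = 0.0144) and Mbd2 fell (-0.69 ± 0.17, adjusted p = 0.0275). The median change of readers and relatives was -0.16 in WT and -0.08 in delta.

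Of 12 base excision repair genes 1 was called in WT and 2 in delta, with medians of -0.00 and -0.01; voom weights called 0 and 3. Smug1, a glycosylase for uracil and its oxidised forms, fell from 8.29 to 4.18 FPKM in WT (-0.85 ± 0.23, adjusted p = 0.0489) and from 9.21 to 3.54 FPKM in delta (-1.16 ± 0.23, adjusted p = 0.0103). Lig3, a ligase of the last step of repair, rose in delta (0.76 ± 0.17, adjusted p = 0.0166). Of 15 regulators of methylation in early embryo cells 3 rose and 2 fell in each genotype, with medians of 0.43 and 0.35. Dppa3, which is known to keep Uhrf1 from chromatin, fell from 64.3 to 11.1 FPKM in WT (-2.44 ± 0.33, adjusted p = 0.00180) and from 39.4 to 7.54 FPKM in delta (-2.16 ± 0.33, adjusted p = 0.00257), and it had fallen by 12 h in both. Prdm14, known to repress Dnmt3a, Dnmt3b and Dnmt3l in naive cells, fell from 14.3 to 2.20 FPKM in WT (-2.28 ± 0.41, adjusted p = 0.00778) and from 14.8 to 1.47 FPKM in delta (-2.60 ± 0.41, adjusted p = 0.00299). At 12 h Prdm14 stood at 7.76 and 7.85 FPKM and was not called (adjusted p = 0.351 and 0.288).

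Kdm2b, a protein that binds unmethylated CpG islands, rose from 11.5 to 27.0 FPKM in WT (1.20 ± 0.29, adjusted p = 0.0292) and from 8.72 to 25.1 FPKM in delta (1.48 ± 0.29, adjusted p = 0.00875), and it was already called at 12 h in both. Cxxc1, another CpG island protein, rose by 0.65 ± 0.15 (adjusted p = 0.0293) and 0.78 ± 0.15 (adjusted p = 0.00956). The last of the 5, Ehmt1, a histone H3 lysine methyltransferase named after its values were seen, rose by 0.69 ± 0.19 (adjusted p = 0.0493) and 0.86 ± 0.19 (adjusted p = 0.0156). Of 9 genes of methyl donor and 2-oxoglutarate metabolism 2 fell in each genotype, with medians of -0.01 and -0.20. Idh1 and Idh2 make 2-oxoglutarate, the cosubstrate of the Tet enzymes. Idh1 went from 93.3 to 40.1 FPKM in WT (-1.20 ± 0.32, adjusted p = 0.0433) and from 87.0 to 35.8 FPKM in delta (-1.16 ± 0.32, adjusted p = 0.0381), and Idh2 from 86.2 to 41.3 FPKM (-1.05 ± 0.19, adjusted p = 0.00825) and from 86.2 to 34.1 FPKM (-1.32 ± 0.19, adjusted p = 0.00204). Under TPM scaling all 22 of these calls from 0 h to 24 h kept their direction, and 11 were lost (adjusted p 0.0537 to 0.669): Smug1, Prdm14, Ehmt1, Kdm2b, Cxxc1 and Idh2 in WT, and Mbd2, Smug1, Dppa3, Idh1 and Idh2 in delta. The 12 h calls of Dppa3 were also lost in limma (adjusted p = 0.162 in WT and 0.231 in delta). At 12 h Kdm2b was lost in WT (adjusted p = 0.172) and held in delta (adjusted p = 0.0236). Between genotypes limma and voom weights each called 0 of the 51 genes at 0, 12 and 24 h, with 2, 0 and 0 at an unadjusted p under 0.05.

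For each member tested, the 3 genes most like it were those with the highest Pearson r of log2(FPKM + 1) over the 12 libraries, which share the same times and the same uneven 0 h libraries. Dnmt3a was most like Creb3l1 (r = 0.99), Slc35d3 and Mmp25. Nearest to Dnmt3b were Sox4, Grhl2 and Efnb2, and to Dnmt3l Utf1, Pdzd4 and Dok2. Dnmt1 was most like Snrnp200, Bag6 and Pcm1, and Uhrf1 most like Zfp574, Mcm4 and Mcm6. For Tet1 these were Stk11ip, Pml and Ski, for Tet2 Glis2, Krt8 and Arvcf, and for Tdg Arl4a, Tmem238 and Adk. Among the members, Dnmt3a and Dnmt3b had r = 0.96, Dnmt3b and Dnmt3l 0.90, Dnmt1 and Uhrf1 0.91, and Dnmt1 and Tet1 0.91, where the last 2 also share the low 0 h replicate 1 libraries.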

How the data were processed

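Counts behind the table were scaled to FPKM by the authors, and the deposited FPKM values were used as they are. The submitters' processing notes list cutadapt, STAR 2.5.2b, featureCounts 1.5.1, edgeR 3.16.5 and build mm10, with no role or order; whether counting used strand is not given there. Exon lengths of GENCODE M21, or lengths found from the steps, turned FPKM into whole reads (tolerance 0.01) for 28656 of 28657 genes above 0. These reads gave depths, Tet3 intervals and an alternative with voom weights.

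Log2(FPKM + 1) of genes with at least 1 FPKM in at least 2 libraries entered 1 limma 3.58.1 model (R 4.3.3) with 6 group means, variances following a trend and Benjamini-Hochberg adjustment within each of 12 contrasts. The pseudocount of 1 understates changes of low genes. Ratios were compared with exact permutation tests in Python 3.11.15. Replicates are numbered in the titles, and the deviations of same-numbered WT and delta libraries correlated at 0.702, 0.28 and 0.369 at 0, 12 and 24 h. The numbers were taken to pair the libraries, which is an assumption at 12 h and 24 h, and the block is an alternative.

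Members and lists were chosen with earlier results of these data known. Named are the 9 members, Tcf15, list genes called from 0 h to 24 h (at most 4 per list, by the smallest WT adjusted p, with Ehmt1 named beyond them after its values were seen) and the 3 most alike genes with a mean of at least 5 FPKM in their highest group. Alternatives changed the pseudocount, scaling, filter, variance model, block, groups in the fit and libraries. Removal of a length trend, a block within each time, values of replicate 2 alone, folds with 1 library left out and TPM scaling and voom weights for the list genes were chosen after seeing the data. Protein sequences were not used here.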

Additional observations from a re-analysis of the deposited data

Results flagged for a closer look

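Dnmt3b is listed because the sign of its genotype difference was opposite between times in every pair of libraries. Delta was below WT in both pairs at 0 h and above it in both pairs at 12 h and at 24 h. The mean difference between delta and WT was higher by 0.46 at 12 h than at 0 h (SE 0.32) and by 0.71 at 24 h than at 0 h (SE 0.32), on the log2(FPKM + 1) scale. Limma's test of this difference gave an adjusted p of 1.00 at both times. With a term for each pair, an alternative chosen after seeing the data, the adjusted p in limma was 1.00 at 12 h and 0.869 at 24 h. The same pattern of signs was seen in 1.08% of the genes tested.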

How the results depend on the processing

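The calls of Dnmt3a, Dnmt3b and Dnmt3l from 0 h to 24 h held in all 23 alternatives in both genotypes, and no result changed sign while called. Among single members 2190 comparisons stayed on their side of the threshold, 21 gained and 21 lost a call. The members called numbered 2 in WT from 0 h to 12 h, and 0 with only the 2 groups in the fit; leaving out 1 library gave 1 to 3, the 1 (Dnmt3l) without WT 12 h replicate 1 and the 3 (Dnmt3a added) without WT 12 h replicate 2. From 12 h to 24 h in WT the count was 0, and 1 (Dnmt3b) without both 0 h replicate 1 libraries and with the length trend removed; leaving out 1 library gave 0 to 1, the 1 without either delta 0 h library. From 0 h to 24 h in WT it was 3, and 5 without both 0 h replicate 1 libraries, with Tet2 (-0.71, adjusted p = 0.0469) and Tdg added. In delta it was 3 from 0 h to 12 h, and 0 with only the 2 groups; leaving out 1 library gave 2 to 7: Dnmt3a was lost without delta 0 h replicate 1 or any 1 library of delta 12 h, delta 24 h or WT 24 h, Tet2 was added without either WT 0 h library, and all members tested but Tdg were called without delta 0 h replicate 2. From 12 h to 24 h in delta it was 1, 0 under TPM scaling, and 2 with only the 2 groups and without both 0 h replicate 1 libraries; leaving out 1 library gave 0 to 1, the 0 without any 1 delta library of 12 h or 24 h. From 0 h to 24 h in delta it was 3, and 3 to 6 when 1 library was left out, the 6 without delta 0 h replicate 2, where the lone library is assumed to vary like the other groups. The log2 ratio of Dnmt3a to Dnmt3b was higher at 24 h by 1.25 to 1.94 with 1 library left out, and 1.25 did not pass. With the replicate block the only call that changed among the members was Tet1 in delta from 0 h to 12 h (1.37, adjusted p = 0.0498). TPM scaling shifted the median of all genes by -0.20 (delta minus WT at 0 h) to 0.45 (delta, 0 h to 24 h). The cause of the differences between settings was not tested. Precision is limited by 2 libraries a group and, for Tet3, by 8 to 171 reads.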

Other observations

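Among 21 tested genes within 1 Mb of Dnmt3a, the median difference between WT replicates 1 and 2 was 0.08, -0.00 and 0.04 at 0, 12 and 24 h on the log2(FPKM + 1) scale, and Dnmt3a differed by 0.65, 1.69 and 0.97. In delta the neighbours differed by -0.07, 0.06 and -0.02 and Dnmt3a by -0.59, 0.58 and 0.11.

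The antisense genes annotated at Dnmt3a (Dnmt3aos) and Dnmt3b (Dnmt3bos) had at most 2 and 8 reads in any library, and the processed pseudogenes of Dnmt3a and Dnmt3l at most 0 and 1.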
